A study of Mus musculus with 16 samples.

Results

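The immediate early genes described here are 10 mouse genes, Fos, Jun, Junb, Egr1, Myc, Nr4a1, Ier2, Ier3, Btg2 and Dusp1, taken by name from a table of 25006 Ensembl gene identifiers. Reads per gene were counted in RNA of whole liver from C57BL/6 mice, an inbred laboratory strain. A slurry of fast food or of chow had been given by oral gavage to mice drinking antibiotic water or normal (control) water, and livers were collected 4 h later. The 16 libraries form 4 groups of 4, namely fast food with antibiotic water, chow with antibiotic water, fast food with control water and chow with control water. Every group had a gavage, so no group represents liver without one. Neither age nor sex, nor which antibiotics were used, at what dose and for how long, is stated in the sources used here. The design asks whether liver transcripts differ between the meals and whether the drinking water alters that difference.

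Immediate early genes are transcribed within minutes of a stimulus from factors already present in the cell, and their short-lived transcripts usually fall again soon after. Growth factor and stress signals reach them through MAP kinases and serum response factor, and hormones such as glucagon through cyclic AMP and CREB. In liver they are known for their rapid rise after partial hepatectomy and in the acute phase response. Fos, Jun and Junb encode subunits of the dimeric transcription factor AP-1. Egr1 is a zinc finger transcription factor, Myc a transcription factor of growth and ribosome biogenesis, and Nr4a1 an orphan nuclear receptor that promotes gluconeogenic gene expression in mouse liver. Ier2 and Ier3 are small proteins named as immediate early response genes, Ier3 being a modulator of cell survival. Btg2 is an antiproliferative partner of the deadenylation machinery, and Dusp1 is a phosphatase that switches off MAP kinases.

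The promoter sequences of 4 of these genes are shown because they carry the letters of the cyclic AMP response element (CRE) or of its core. RefSeq (GRCm38.p6) promoter windows of 300 bases, from 250 before to 50 after the annotated start, were searched for 7 of the 10 genes. Egr1 was left out of the search, and no window was at hand for Ier2 and Myc. For the 4 genes shown, the 250 bases before the start are printed. Each runs 5′ to 3′ on the strand of its gene. Capitals mark the CRE (TGACGTCA), its core (TGACG, or CGTCA where it lies on the other strand) and the TATA box (TATAAA). Btg2 lies at chr1:134079156-134079405 on the minus strand, Dusp1 at chr17:26508473-26508722 on the minus strand, Fos at chr12:85473640-85473889 on the plus strand and Nr4a1 at chr15:101266596-101266845 on the plus strand.
Btg2: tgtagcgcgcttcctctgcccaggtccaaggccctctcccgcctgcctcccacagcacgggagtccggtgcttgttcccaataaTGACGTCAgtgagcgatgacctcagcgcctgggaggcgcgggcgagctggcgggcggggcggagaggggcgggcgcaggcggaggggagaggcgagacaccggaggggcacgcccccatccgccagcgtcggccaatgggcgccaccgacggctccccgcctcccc
Dusp1: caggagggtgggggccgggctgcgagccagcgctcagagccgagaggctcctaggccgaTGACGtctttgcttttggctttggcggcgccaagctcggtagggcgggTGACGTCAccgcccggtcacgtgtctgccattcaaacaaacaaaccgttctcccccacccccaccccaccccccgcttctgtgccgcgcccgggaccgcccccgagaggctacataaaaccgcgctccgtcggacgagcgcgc
Fos: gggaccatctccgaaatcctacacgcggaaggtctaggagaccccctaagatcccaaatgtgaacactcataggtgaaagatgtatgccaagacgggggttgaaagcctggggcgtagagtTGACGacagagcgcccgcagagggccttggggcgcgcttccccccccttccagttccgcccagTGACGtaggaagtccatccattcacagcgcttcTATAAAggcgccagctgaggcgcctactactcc
Nr4a1: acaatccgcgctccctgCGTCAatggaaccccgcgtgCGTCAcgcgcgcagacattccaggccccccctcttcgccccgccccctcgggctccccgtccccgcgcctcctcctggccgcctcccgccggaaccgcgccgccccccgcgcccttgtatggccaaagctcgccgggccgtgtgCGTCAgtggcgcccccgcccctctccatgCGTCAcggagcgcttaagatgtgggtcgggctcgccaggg

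Searched on both strands of the whole window, the full CRE was in 2 of the 7 windows, at -166 to -159 from the start in Btg2 and at -143 to -136 in Dusp1, against 1.79% of all 32851 RefSeq windows. Every full CRE also counts as a core, and the core was in 5 of 7 windows, against 20.8% of all windows. Fos held it at -129 and -66, Nr4a1 at 4 places on the other strand from -233 to -36, Dusp1 at -191 as well, and Junb at -106. The SP1 box (GGGCGG) was in 6 of 7 windows, against 35.7% of all, and the TATA box was in 2, at -33 to -28 in Fos and at 1 to 6 after the start in Junb, against 13.6% of all. The CArG box, which serum response factor binds, was in 0 of 7 windows and in 1.63% of all. Egr1 was not searched, and sites more than 250 bases before the start lay outside the windows. The 0 therefore does not show that these genes lack the box. These are matches of letters in a window and not measured binding. The RefSeq starts of Nr4a1 and Dusp1 used here lie inside longer gene models of the GENCODE M21 annotation (GRCm38), where Nr4a1 spans chr15:101254269-101274795 and Dusp1 chr17:26505590-26562128.

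Total counts ran from 8954378 to 18954655 per library. Hepatocyte markers, albumin among them, summed to at least 110300 CPM (counts scaled to library size, with TMM factors) in every library, and the labelled tissue is liver. Reads resembling ribosomal RNA, counted in the features Gm20594, Lars2, Mir6236 and Mir6240, made up over 1% of counts (the rRNA-like share) in 7 libraries, including 3 of 4 in fast food with antibiotic water, 2 of 4 in chow with antibiotic water, 0 of 4 in fast food with control water and 2 of 4 in chow with control water. These 7 libraries had total counts of 8954378 to 15094803, and all others had 18102482 to 18954655. The rRNA-like share and the total counts can therefore not be told apart here. Fast food antibiotic replicate 2, chow antibiotic replicate 4 and chow control replicate 2 had the highest summed acute phase transcripts within their own groups, and results are given with and without those 3 libraries. All 3 are among the 7 with a high rRNA-like share, at 2.71, 7.69 and 2.45% in the same order. In RNA of whole tissue, fewer cells of a type and less RNA per cell cannot be told apart. Replicates are numbered in the labels without a statement that each is a separate mouse, and if they came from shared animals, the p-values would cover just the spread among these libraries, which may be technical.

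All 10 genes passed the filter on low counts, which left 13180 genes for testing. Levels are CPM, in the order of replicates 1 to 4. A gene was called where its adjusted p was under 0.05 in edgeR's quasi-likelihood test with Benjamini-Hochberg adjustment over all 13180 genes. Fold changes are log2 ± SE, and a positive value means higher after fast food than after chow, or higher in antibiotic than in control water. Gene positions are those of GENCODE M21 (GRCm38), and all 10 genes are protein coding.

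The immediate early genes were highest in livers of mice given chow in antibiotic water. With chow, all 10 fitted differences between antibiotic and control water were positive, from 2.19-fold for Junb to 17.5-fold for Ier3, and 7 of 10 were called higher (Egr1, Myc, Nr4a1, Ier2, Ier3, Btg2 and Dusp1), against 10.6% of all genes tested called higher. In antibiotic water, all 10 fitted differences between fast food and chow were negative, and 4 of 10 were called lower (Myc, Nr4a1, Ier2 and Ier3), against 5.87% of all genes called lower. Fits to just the 2 groups compared called 0 of 10 for this meal difference (229 of all genes). For the water difference after chow they called 4 of 10 (2515 of all genes). These contrasts share the 4 chow antibiotic libraries, so their opposite signs are not independent of each other. Nor are the 10 genes independent, since they rose and fell together over libraries (Pearson's r of 0.716 to 0.964 with the mean of the other members). The median log2 fold change of the 10 genes was 1.98 for antibiotic over control water after chow, against -0.0057 over all genes tested, and -1.95 for fast food over chow in antibiotic water, against 0.032. In the remaining pair of comparisons, fast food over chow in control water and antibiotic over control water after fast food, 0 of 10 genes were called.

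**Figure D1:**
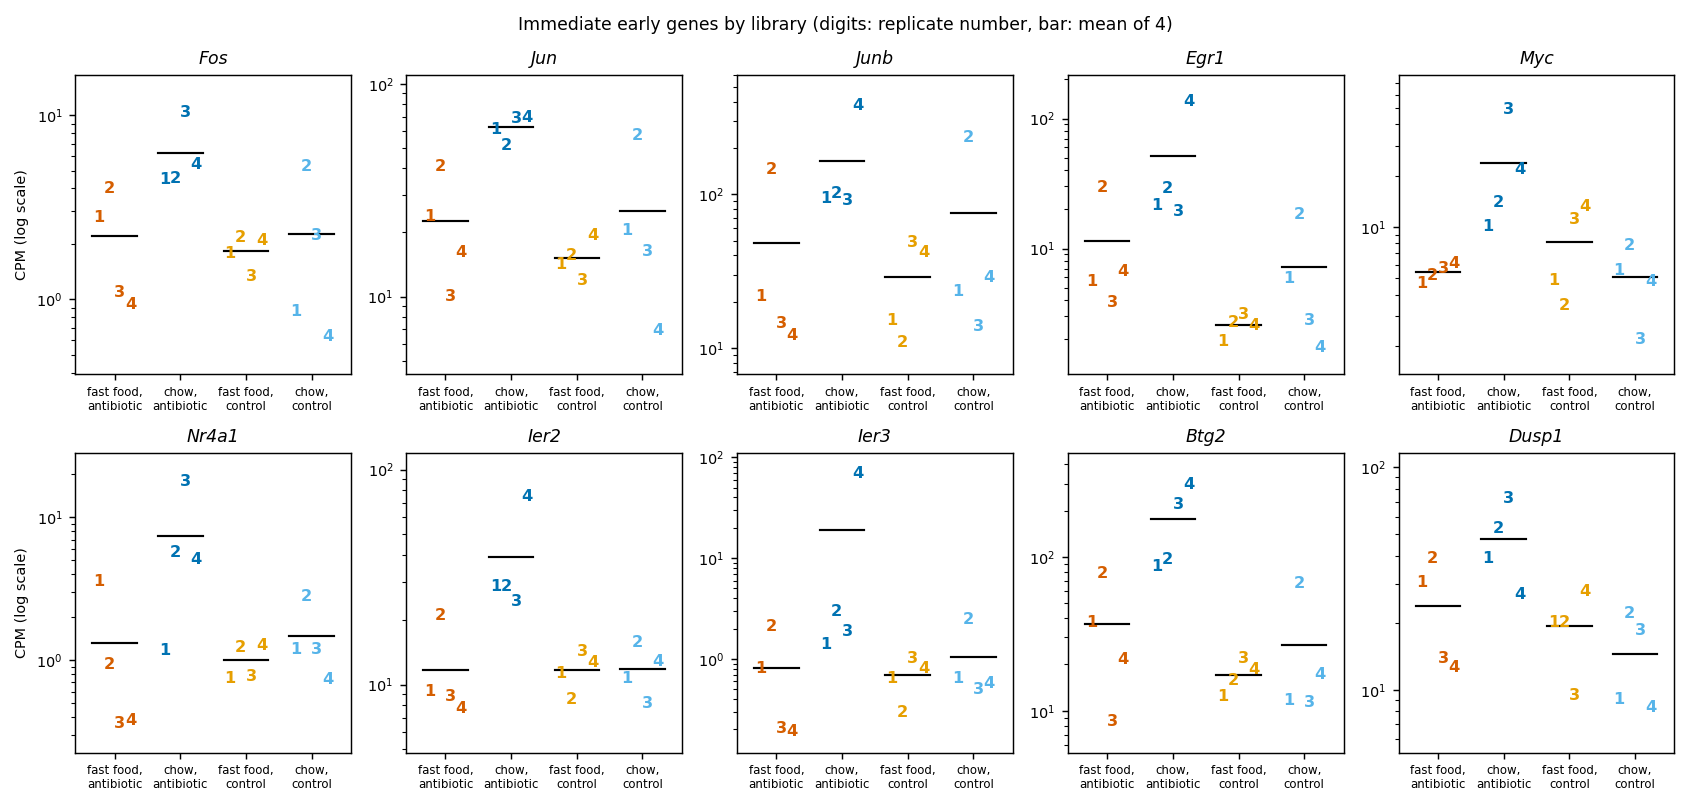
CPM on a log axis of each immediate early gene in the 16 libraries, with fast food left of chow and antibiotic left of control water. Digits are replicate numbers and bars are means of 4 libraries. The chow antibiotic libraries lie above all chow control libraries for Egr1, Myc, Ier2, Btg2 and Dusp1, and replicate 2 is the highest chow control library for all 10 genes.

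Among the AP-1 subunits, Jun had its 4 chow antibiotic libraries close together. It lies at chr4:95049034-95052222 on the minus strand and had 23.7, 40.9, 10.1 and 16.1 CPM in fast food antibiotic livers and 61.05, 51.2, 68.96 and 69.02 CPM in chow antibiotic livers. In control water Jun had 14.2, 15.5, 11.9 and 19.4 CPM in fast food livers and 20.5, 57.2, 16.4 and 6.90 CPM in chow livers. All 4 chow antibiotic values lay above all 4 fast food antibiotic values, while chow control replicate 2 reached into the chow antibiotic range and the other 3 chow control libraries did not. Jun's log2 fold change was 1.31 ± 0.52 for antibiotic over control water after chow (adjusted p = 0.0847) and -1.47 ± 0.53 for fast food over chow in antibiotic water (adjusted p = 0.0786), and neither was called. Without chow control replicate 2, Jun was called in both (log2 fold changes 2.12 ± 0.44 and -1.47 ± 0.38, adjusted p = 0.00437 and 0.0273). Without chow control replicate 4 or fast food antibiotic replicate 2, Jun was called for the meal in antibiotic water (adjusted p = 0.0421 and 0.0269).

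Fos, the partner of Jun in AP-1, was low throughout. The gene lies at chr12:85473890-85477273 on the plus strand and had 2.79, 4.02, 1.08 and 0.943 CPM in fast food antibiotic livers and 4.50, 4.55, 10.4 and 5.40 CPM in chow antibiotic livers. In control water Fos had 1.77, 2.17, 1.32 and 2.08 CPM in fast food livers and 0.859, 5.29, 2.23 and 0.627 CPM in chow livers. The chow antibiotic libraries were all above the fast food antibiotic libraries, and 3 of 4 chow control libraries were below all of the chow antibiotic libraries. Fos was not called for antibiotic over control water after chow (1.46 ± 0.56, adjusted p = 0.0700) or for fast food over chow in antibiotic water (-1.51 ± 0.57, adjusted p = 0.0863). Without chow control replicate 2 it was called in both (2.28 ± 0.53 and -1.51 ± 0.46, adjusted p = 0.00656 and 0.0420), and without fast food antibiotic replicate 2 for the meal in antibiotic water (-2.01 ± 0.62, adjusted p = 0.0312).

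Junb, an AP-1 subunit that can restrain Jun, had the highest level per length of the 10 genes and a wide spread within groups. Junb (chr8:84974484-84978718, minus strand) had 21.6, 146, 14.4 and 12.1 CPM in fast food antibiotic livers and 94.3, 102, 91.4 and 377 CPM in chow antibiotic livers. In control water it had 15.1, 10.8, 48.8 and 41.7 CPM in fast food livers and 23.2, 236, 13.7 and 28.7 CPM in chow livers. A single library stood far above the other 3 in the fast food antibiotic, chow antibiotic and chow control groups, and the groups overlapped in all comparisons. Junb was not called after chow for antibiotic over control water (1.13 ± 1.04, adjusted p = 0.463) or in antibiotic water for fast food over chow (-1.77 ± 1.06, adjusted p = 0.287). The value after chow was 2.92 ± 1.01 without chow control replicate 2 (adjusted p = 0.0554) and 0.38 ± 1.09 without chow antibiotic replicate 4 (adjusted p = 0.836), and without fast food antibiotic replicate 2 Junb was called lower after fast food than after chow in antibiotic water (-3.38 ± 1.11, adjusted p = 0.0486).

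Egr1 (chr18:34859823-34864984, plus strand) had 5.57, 29.5, 3.87 and 6.70 CPM in fast food antibiotic livers and 21.6, 29.1, 19.3 and 136 CPM in chow antibiotic livers. In control water Egr1 had 1.93, 2.71, 3.11 and 2.54 CPM in fast food livers and 5.90, 18.4, 2.78 and 1.73 CPM in chow livers. Antibiotic livers were above control livers in every library after either meal, and chow antibiotic replicate 4 was far above the rest. The group means were 51.5 ± 56.6 CPM for chow antibiotic and 7.20 ± 7.68 CPM for chow control (SD, n = 4 each), and Egr1 was called higher in antibiotic water after chow (2.84 ± 0.90, adjusted p = 0.0360). The call was lost without chow antibiotic replicate 4 (1.74 ± 0.78, adjusted p = 0.130) and without chow control replicate 1, 3 or 4 (adjusted p = 0.0834, 0.0976 and 0.0871). Fast food over chow in antibiotic water was -2.15 ± 0.86 (adjusted p = 0.115), and it was called without fast food antibiotic replicate 2 (-3.27 ± 0.92, adjusted p = 0.0253) but was -1.05 ± 0.76 without chow antibiotic replicate 4.

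Myc (chr15:61985391-61990374, plus strand) had 4.68, 5.17, 5.72 and 6.13 CPM in fast food antibiotic livers and 10.1, 13.8, 49.1 and 21.7 CPM in chow antibiotic livers. In control water Myc had 4.82, 3.45, 11.1 and 13.2 CPM in fast food livers and 5.58, 7.83, 2.18 and 4.76 CPM in chow livers. The chow antibiotic libraries were above all fast food antibiotic and all chow control libraries, and the 4 fast food antibiotic libraries lay close together. Myc was called higher in antibiotic water after chow, at 23.7 ± 17.6 CPM in chow antibiotic and 5.09 ± 2.33 CPM in chow control livers (SD, n = 4 each; 2.24 ± 0.54, adjusted p = 0.00900), and the call held without each library in turn. It was called lower after fast food than after chow in antibiotic water (-2.13 ± 0.54, adjusted p = 0.0216), a call that was lost without fast food antibiotic replicate 1, 3 or 4 (adjusted p = 0.0577, 0.0603 and 0.0578) and without chow antibiotic replicate 3 (-1.46 ± 0.46, adjusted p = 0.0536).

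Nr4a1 had 3.58, 0.933, 0.361 and 0.377 CPM in fast food antibiotic livers and 1.17, 5.69, 17.7 and 5.11 CPM in chow antibiotic livers. In control water Nr4a1 had 0.749, 1.23, 0.765 and 1.27 CPM in fast food livers and 1.18, 2.82, 1.19 and 0.732 CPM in chow livers. Chow antibiotic replicate 3 led its group, as for Fos, Myc and Dusp1, fast food antibiotic replicate 1 led its group for Nr4a1 alone, and chow antibiotic replicate 1 was within the range of the chow control livers. Nr4a1 was called higher in antibiotic water after chow (2.35 ± 0.76, adjusted p = 0.0360) and lower after fast food than after chow in antibiotic water (-2.61 ± 0.79, adjusted p = 0.0419), with group means of 1.31 ± 1.54 CPM for fast food antibiotic, 7.42 ± 7.15 CPM for chow antibiotic and 1.48 ± 0.916 CPM for chow control (SD, n = 4 each). Without chow antibiotic replicate 3 the values were 1.40 ± 0.69 (adjusted p = 0.166) and -1.65 ± 0.71 (adjusted p = 0.140). The call after chow was also lost without chow antibiotic replicate 2 (adjusted p = 0.05001) or chow control replicate 1, 3 or 4 (adjusted p = 0.0829, 0.0951 and 0.0954). The call for the meal was kept without 4 of the 16 libraries and lost without each of the other 12.

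Ier2 was the gene of the 10 called in both comparisons whichever library was left out. It lies at chr8:84661331-84662852 on the minus strand and had 9.25, 20.96, 8.77 and 7.73 CPM in fast food antibiotic livers and 28.7, 28.7, 24.2 and 74.8 CPM in chow antibiotic livers. In control water Ier2 had 11.2, 8.57, 14.2 and 12.7 CPM in fast food livers and 10.7, 15.7, 8.13 and 12.9 CPM in chow livers. Every chow antibiotic library was above every library of the other groups. Ier2 was called higher in antibiotic water after chow, at 39.1 ± 23.9 CPM in chow antibiotic and 11.9 ± 3.22 CPM in chow control livers (SD, n = 4 each; 1.71 ± 0.39, adjusted p = 0.00618), and lower after fast food in antibiotic water, at 11.7 ± 6.22 CPM in fast food antibiotic livers (-1.72 ± 0.39, adjusted p = 0.0132). Both calls held without each of the 16 libraries in turn, with adjusted p of at most 0.0474 for the meal in antibiotic water. Fitted to just the 2 groups compared, Ier2 was called for the water after chow (adjusted p = 0.0190). It was not called there for the meal in antibiotic water (-1.74 ± 0.47, adjusted p = 0.0801).

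Ier3 (chr17:35821684-35822923, plus strand) had 0.796, 2.08, 0.206 and 0.189 CPM in fast food antibiotic livers and 1.39, 2.98, 1.89 and 69.3 CPM in chow antibiotic livers. In control water Ier3 had 0.642, 0.295, 1.02 and 0.813 CPM in fast food livers and 0.644, 2.47, 0.496 and 0.575 CPM in chow livers. The mean of the chow antibiotic group was set by replicate 4, and the other 3 libraries overlapped both groups they were compared with. Ier3 was called higher in antibiotic water after chow (4.13 ± 1.28, adjusted p = 0.0329) and lower after fast food than after chow in antibiotic water (-4.46 ± 1.33, adjusted p = 0.0431). Without chow antibiotic replicate 4 these were 1.01 ± 0.67 (adjusted p = 0.302) and -1.35 ± 0.70 (adjusted p = 0.218). The call after chow was also lost without chow control replicate 1, 3 or 4 (adjusted p = 0.0776, 0.0916 and 0.0856), and the call for the meal was kept without 5 of the 16 libraries and lost without the other 11.

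Both genes that act as brakes, Btg2 on proliferation and Dusp1 on MAP kinases, were called higher in antibiotic water after chow. Btg2 (chr1:134075170-134079120, minus strand) had 37.7, 77.8, 8.56 and 21.7 CPM in fast food antibiotic livers and 87.1, 96.4, 220.5 and 297 CPM in chow antibiotic livers. In control water Btg2 had 12.4, 15.8, 21.8 and 18.4 CPM in fast food livers and 11.7, 66.8, 11.3 and 17.2 CPM in chow livers. The chow antibiotic libraries were above all other libraries, with fast food antibiotic replicate 2 and chow control replicate 2 next. Btg2 was called higher in antibiotic water after chow, at 175 ± 102 CPM in chow antibiotic and 26.7 ± 26.8 CPM in chow control livers (SD, n = 4 each; 2.71 ± 0.73, adjusted p = 0.0180), and the adjusted p was 0.0508, 0.0542 and 0.0527 without chow control replicate 1, 3 or 4. For fast food over chow in antibiotic water Btg2 was at -2.27 ± 0.72 (adjusted p = 0.0537), and it was called without chow control replicate 2 or fast food antibiotic replicate 2 (adjusted p = 0.0287 and 0.0172).

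Dusp1 had 30.2, 38.9, 13.8 and 12.6 CPM in fast food antibiotic livers and 38.8, 52.99, 72.5 and 26.8 CPM in chow antibiotic livers. In control water Dusp1 had 19.96, 20.1, 9.43 and 27.8 CPM in fast food livers and 9.02, 22.1, 18.4 and 8.37 CPM in chow livers. The chow antibiotic libraries were above all chow control libraries but overlapped the fast food antibiotic libraries, and replicate 4, the highest chow antibiotic library for 6 of the other genes, was the lowest for Dusp1. Dusp1 was called higher in antibiotic water after chow, at 47.8 ± 19.6 CPM in chow antibiotic and 14.5 ± 6.83 CPM in chow control livers (SD, n = 4 each; 1.72 ± 0.46, adjusted p = 0.0167), and the call held without each library in turn. It was not called for fast food over chow in antibiotic water (-1.01 ± 0.45, adjusted p = 0.153).

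Counted by library, 5 of 10 genes had no overlap between chow antibiotic and chow control livers and were higher in antibiotic water (Egr1, Myc, Ier2, Btg2 and Dusp1), against 11.2% of all genes tested. For the meal in antibiotic water, 5 of 10 had no overlap and were lower after fast food (Fos, Jun, Myc, Ier2 and Btg2), against 6.71% of all genes. Each of these has an exact two-sided permutation p of 0.0286 on log2 CPM, the smallest that 70 assignments of 4 against 4 libraries allow. Groups without overlap always give this value, so it adds nothing to the lack of overlap. Ier3 and Nr4a1, called in edgeR although their groups overlapped, had larger permutation p. It was 0.0857 for Ier3 and 0.114 for Nr4a1 for the water after chow. For the meal in antibiotic water it was 0.0857 and 0.0571. Counts of members called varied with the library left out, from 3 to 9 for antibiotic water after chow and from 1 to 8 for the meal in antibiotic water. The lowest counts were 3 without chow control replicate 1, 3 or 4 (2434, 2301 and 2439 of all genes) and 1 without fast food antibiotic replicate 3 or 4 (842 and 697). The highest were 9 without chow control replicate 2 (3204 of all genes) and 8 without fast food antibiotic replicate 2 (3042). With all 16 libraries, 3138 of all genes were called for antibiotic water after chow and 1800 for the meal in antibiotic water.

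**Figure D2:**
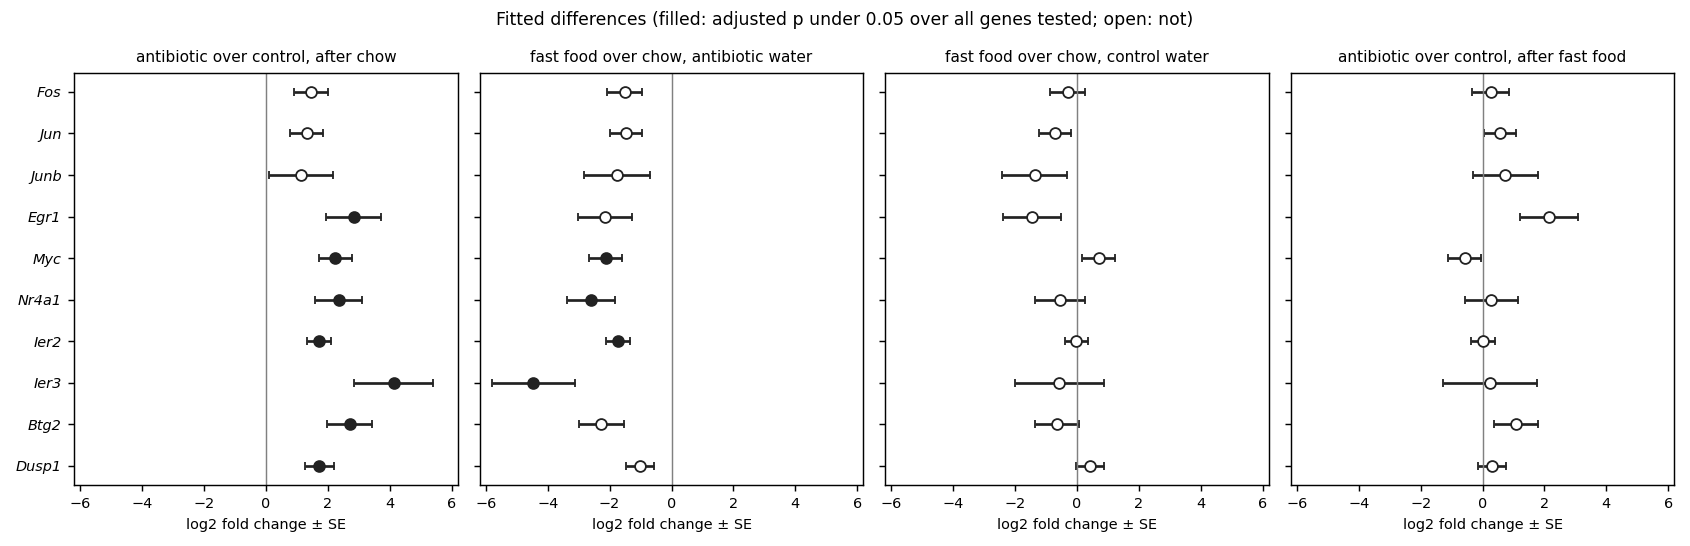
Log2 fold change ± SE (bars) of each gene from edgeR in the 4 comparisons of 2 groups. Filled points have an adjusted p under 0.05 over all 13180 genes tested. In the left panel 7 of 10 points are filled, in the next 4 of 10, and in the remaining panels 0 of 10.

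In control water no difference between the meals passed the test in these genes. With fast food over chow, fitted log2 values ran from -1.46 ± 0.94 for Egr1 to 0.69 ± 0.53 for Myc, 8 negative and 2 positive, and 0 of 10 were called (against 0.577% of all genes tested) or had an unadjusted p under 0.05 in edgeR, and 0 were called with DESeq2. Over all 13180 genes, 1515 had an unadjusted p under 0.05 in edgeR, and DESeq2 called 307. The approximate 95% intervals (1.96 SE) were as narrow as -0.77 to 0.73 for Ier2 and as wide as -3.39 to 2.25 for Ier3, and they allow differences of that size in either direction. Chow control replicate 2 was the highest library of its group for all 10 genes. Without chow control replicate 2, Fos, Jun, Junb, Ier2, Ier3 and Btg2 had a positive fitted value in place of a negative one, and 0 were called.

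After fast food, antibiotic water differed from control water in 0 of 10 genes in edgeR's test, against 5.99% of all genes called, and 0 with DESeq2, against 1538 of all genes. Egr1 alone had an unadjusted p under 0.05 and no overlap, at 11.4 ± 12.1 CPM in fast food antibiotic and 2.57 ± 0.492 CPM in fast food control livers (SD, n = 4 each; 2.15 ± 0.93, adjusted p = 0.166). Over all 13180 genes, 3433 had an unadjusted p under 0.05. The value of Egr1 without fast food antibiotic replicate 2 was 1.03. The interval for Ier2, -0.75 to 0.76, was the narrowest, and Myc was the gene with a negative fitted value (-0.58 ± 0.53, adjusted p = 0.527).

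Whether the meal difference depended on the water was tested as the interaction (the meal difference in antibiotic water minus that in control water). It was called in 0 of 10 genes in edgeR, against 3.94% of all genes. An unadjusted p under 0.05 was found for 3 of 10, against 2785 of all 13180 genes. DESeq2 called 2, Ier2 and Myc, against 1107 of all genes. All 10 fitted interactions were negative, with a median of -1.52, against 0.0559 over all genes. Myc had the lowest adjusted p (-2.82 ± 0.76, adjusted p = 0.0524), followed by Ier2 (-1.70 ± 0.54, adjusted p = 0.0881) and Dusp1 (-1.42 ± 0.64, adjusted p = 0.226). Leaving out single libraries called Ier2 without fast food antibiotic replicate 2 (-2.16 ± 0.49, adjusted p = 0.0132) and Myc without chow antibiotic replicate 1 (-3.12 ± 0.71, adjusted p = 0.0396).

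The summed acute phase transcripts and the immediate early genes were partly high in the same libraries. Over 22 acute phase genes, the summed level was 21770, 80760, 21460 and 16910 CPM in fast food antibiotic livers and 53040, 52710, 36870 and 75580 CPM in chow antibiotic livers. It was 23880, 22480, 26260 and 24630 CPM in fast food control livers and 26830, 47450, 24890 and 31130 CPM in chow control livers. Fast food antibiotic replicate 2, chow antibiotic replicate 4 and chow control replicate 2 were each the highest within their own group, although chow control replicate 2 was below chow antibiotic replicates 1 and 2. All 4 chow antibiotic libraries were above the 4 fast food control libraries. Fast food antibiotic replicate 2 was the highest of its group for 8 of the 10 immediate early genes, chow antibiotic replicate 4 for 6 and chow control replicate 2 for 10. Chow antibiotic replicate 3 went the other way, with the lowest acute phase sum of its group but the highest Fos, Myc, Nr4a1 and Dusp1. The part of the acute phase transcripts in the differences of the immediate early genes was not tested. Among the 22 acute phase genes, 3 were called higher in antibiotic water after chow, Itih3 (1.17 ± 0.22), Hamp (1.39 ± 0.29), the iron hormone hepcidin, and Cp (0.94 ± 0.21), the copper carrier ceruloplasmin, a share near the 10.6% of all genes called higher. The same 3 genes were called lower after fast food in antibiotic water (against 5.87% of all genes), Itih3 at -0.88 ± 0.22, Hamp at -1.05 ± 0.29 and Cp at -0.997 ± 0.21. The median log2 fold change of the 22 genes was 1.05 for antibiotic water after chow and -0.703 for the meal in antibiotic water. It was 0.660 for antibiotic water after fast food and -0.453 for the meal in control water. Medians over all genes were -0.0057, 0.032, 0.018 and -0.024 in the same order.

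**Figure D3:**
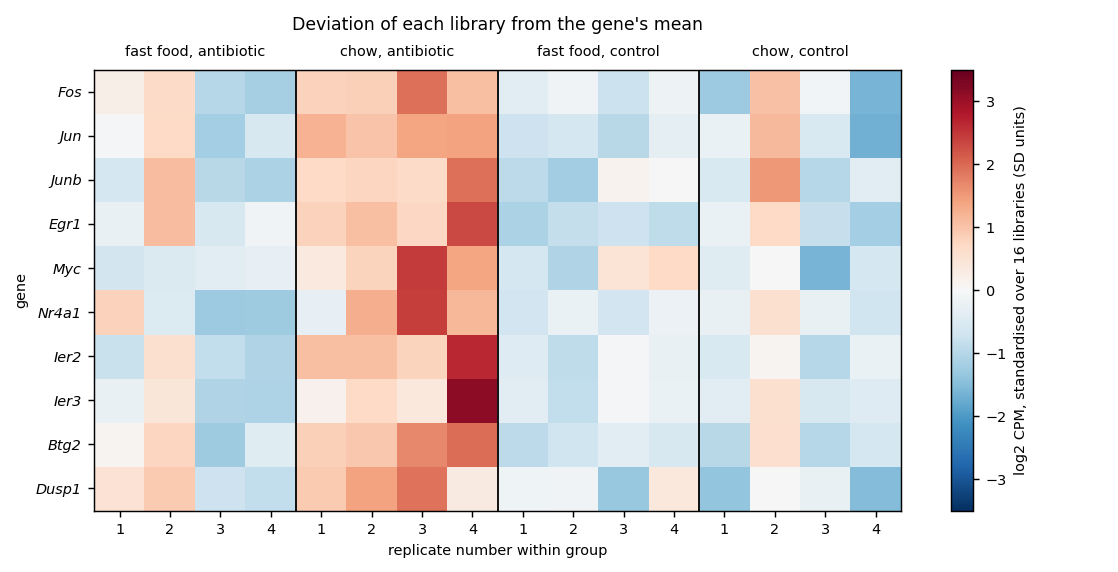
Log2 CPM of each gene (rows) in each library (columns), standardised over the 16 libraries, in SD units from low (blue) to high (red). The 4 chow antibiotic libraries are red in nearly all rows, Nr4a1 in replicate 1 excepted, and replicate 2 of the fast food antibiotic and chow control groups stands above its neighbours in most rows.

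Without those 3 libraries more of the immediate early genes were called, although not all differences were larger. The remaining 13 libraries, 3 in each group but 4 in fast food control, called 10 of 10 genes higher in antibiotic water after chow (against 14.7% of all genes), 9 of 10 lower after fast food in antibiotic water (against 12.6%) and 8 of 10 lower in the interaction (against 7.06%). The 3 libraries were left out for acute phase transcripts known from earlier results. Since they were often also the highest for the genes described, leaving them out narrows the spread within groups by construction. It also moves group means. Chow control replicate 2 led its group for 10 of 10 genes and fast food antibiotic replicate 2 for 8. Their omission enlarges the differences from chow antibiotic livers for those genes. Omitting chow antibiotic replicate 4, highest for 6, shrinks them. The counts called here are therefore no independent support. Btg2 had the largest difference for antibiotic over control water after chow (3.34 ± 0.56, adjusted p = 0.00164) and Ier2 the smallest (1.39 ± 0.18, adjusted p = 4.56e-05). Against the fit to 16 libraries, the difference after chow was smaller for Ier2 and Ier3 and larger for the other 8 genes. Junb was at 2.16 ± 0.55 (adjusted p = 0.0149) and Ier3 at 1.88 ± 0.49 (adjusted p = 0.00813). For fast food over chow in antibiotic water, Fos was at -2.11 ± 0.49 (adjusted p = 0.00685), Egr1 at -2.17 ± 0.33 (adjusted p = 0.000413) and Btg2 at -2.63 ± 0.54 (adjusted p = 0.00701), while Nr4a1 was not called (-2.69 ± 0.99, adjusted p = 0.0748). The interaction was -1.85 ± 0.26 for Ier2 (adjusted p = 0.000287) and -2.99 ± 0.73 for Btg2 (adjusted p = 0.0255), with Myc (-3.20 ± 0.99, adjusted p = 0.0610) and Nr4a1 (-2.69 ± 1.45, adjusted p = 0.254) not called. In fast food over chow with control water and in antibiotic over control water after fast food, 0 of 10 were called in these 13 libraries too.

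**Figure D4:**
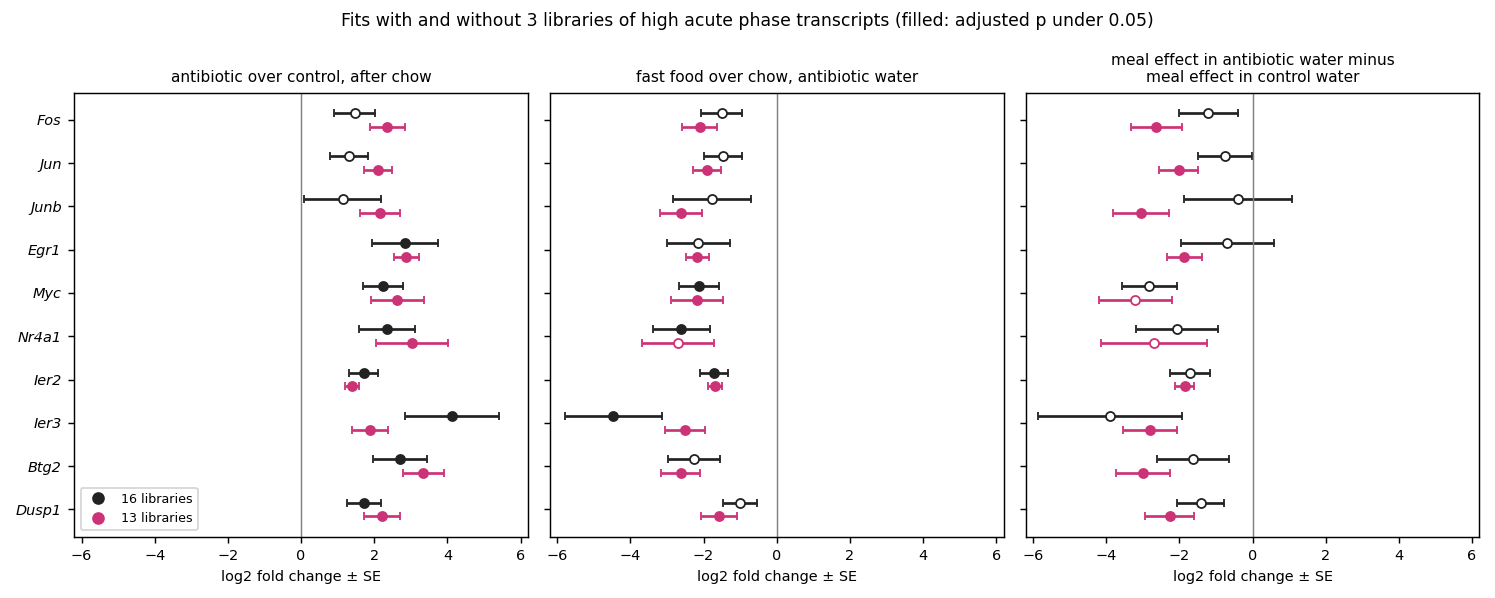
Log2 fold change ± SE (bars) of each gene with all 16 libraries (black) and without the 3 libraries high in acute phase transcripts (pink). Filled points have an adjusted p under 0.05 over all genes tested. Pink points are filled for 10, 9 and 8 of 10 genes from left to right, and black points for 7, 4 and 0.

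The rRNA-like share was split at 1% of counts, and mean log2 CPM was compared on each side without a test, a choice made after seeing the data. On the high side, antibiotic over control water after chow (2 against 2 libraries) was positive for 10 of 10 genes, from 0.79 to 3.37, and on the low side (2 against 2) also for 10 of 10, from 1.36 to 3.30. Fast food over chow in antibiotic water was negative for 10 of 10 genes on the high side (3 against 2 libraries, -4.08 to -0.61) and for 10 of 10 on the low side (1 against 2, -4.00 to -1.58). In control water, fast food over chow on the low side (4 against 2 libraries) was positive for 10 of 10 genes, from 0.0528 to 1.09, where the fit to all libraries gave 8 negative values, and the high side held chow libraries alone. After fast food, antibiotic over control water on the low side (1 against 4 libraries) was negative for 9 of 10 genes, where the fit to all libraries gave 9 positive values. The 10 genes rose and fell together over libraries (Pearson's r of 0.716 to 0.964 with the mean of the other members). A single library can therefore set the sign of many genes, and these counts of genes are not independent observations.

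Markers of other cell types moved in part with the same groups. Neutrophil markers (8 genes, 6 of them tested) summed to 2.59, 11.3, 1.959 and 1.70 CPM in fast food antibiotic livers and to 7.11, 6.48, 4.59 and 99.4 CPM in chow antibiotic livers. They summed to 1.93, 3.25, 4.18 and 3.45 CPM in fast food control livers and to 3.97, 15.5, 4.21 and 2.98 CPM in chow control livers. Within their own groups, fast food antibiotic replicate 2, chow antibiotic replicate 4 and chow control replicate 2 were the highest, and no marker of this or the other lists was at 0 in all libraries. Among the 6 tested, 0 were called in antibiotic over control water after chow (median 2.37), against 10.6% of all genes called higher. In antibiotic water 1 of the 6, Retnlg, was called lower after fast food than after chow (-4.00 ± 1.18, adjusted p = 0.0381), against 5.87% of all genes. Macrophage and Kupffer cell markers (12 genes) summed to 203.8 to 331.3 CPM in fast food antibiotic livers, 228.5 to 279.8 in chow antibiotic livers, 397.8 to 542.3 in fast food control livers and 340.2 to 934.0 in chow control livers. Of these, 9 of 12 were called lower in antibiotic water after chow, among them Timd4 (-1.58 ± 0.26) and Clec4f (-1.08 ± 0.22), and 7 of 12 after fast food, against 13.2% and 2.22% of all genes called lower. The summed hepatocyte markers (9 genes) were 110300 to 172300 CPM in fast food antibiotic livers, 180100 to 238800 in chow antibiotic livers, 120600 to 131700 in fast food control livers and 117600 to 146200 in chow control livers, and 6 of 9 were called higher in antibiotic water after chow, Alb at 0.88 ± 0.20, against 10.6% of all genes called higher. In antibiotic over control water after chow, 5 of 12 stellate cell, 2 of 10 endothelial, 1 of 2 T, B and NK cell, 1 of 5 cholangiocyte and 1 of 5 erythroid markers tested were called lower, against 13.2% of all genes. The part of any of these cell types in the differences of the immediate early genes was not tested.

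Other genes of the same early response moved in part with these 10. Of 19 other immediate early transcription factors, 13 were tested and 4 were called higher in antibiotic water after chow, against 10.6% of all genes. Atf3, a stress-responsive factor, averaged 18.6 ± 22.7 CPM in chow antibiotic and 2.16 ± 2.38 CPM in chow control livers (SD, n = 4 each; 3.04 ± 0.89, adjusted p = 0.0253), and Maff, Klf4 and Klf6 were at 2.31 ± 0.67, 1.48 ± 0.39 and 1.34 ± 0.39. The median of the 13 was 1.26, against -0.0057 over all genes. Atf3 was the gene of this list called lower after fast food than after chow in antibiotic water (-3.08 ± 0.90, adjusted p = 0.0396), 1 of 13 against 5.87% of all genes, and the median there was -1.14, against 0.032 over all genes.

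Of 30 other immediate early regulators and secreted proteins, 29 were tested and 7 were called higher in antibiotic water after chow (median 0.928), against 10.6% of all genes. Hbegf, a ligand of the EGF receptor, averaged 3.73 ± 2.13 CPM in chow antibiotic and 1.10 ± 0.454 CPM in chow control livers (SD, n = 4 each; 1.68 ± 0.39, adjusted p = 0.00583). Btg1, the close relative of Btg2, averaged 51.8 ± 5.60 CPM in chow antibiotic and 29.2 ± 2.26 CPM in chow control livers (0.83 ± 0.17, adjusted p = 0.00233). Dusp8, a MAP kinase phosphatase like Dusp1, was at 3.10 ± 0.82 and the pseudokinase Trib1 at 0.90 ± 0.23. In antibiotic water 5 of 29 were called lower after fast food (median -1.17), against 5.87% of all genes, including Hbegf (-1.94 ± 0.41), Btg1 (-1.11 ± 0.17), the phosphatase Dusp4 (-1.18 ± 0.37) and Mcl1 (-0.65 ± 0.17), which protects cells from apoptosis. Hbegf was the gene of the list called in the interaction (-2.46 ± 0.57, adjusted p = 0.0262).

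Among 20 upstream kinases and transcription factors, all tested, 7 were called higher and 1 lower in antibiotic water after chow (median 0.461), against 10.6% and 13.2% of all genes. Egfr, the EGF receptor, averaged 3121 ± 674 CPM in chow antibiotic and 768 ± 252 CPM in chow control livers (SD, n = 4 each; 2.02 ± 0.34, adjusted p = 0.000876). Crem, a cyclic AMP responsive factor that binds the CRE, was at 0.96 ± 0.26, and Elk4, a partner of serum response factor, at 0.50 ± 0.12. Met, the receptor of hepatocyte growth factor, was the gene called lower (-0.71 ± 0.14), and it was the gene of this list called higher after fast food than after chow in antibiotic water (0.78 ± 0.14). In control water with fast food over chow, 0 of 13, 0 of 29 and 0 of 20 genes of these lists were called, against 0.577% of all genes. After fast food, antibiotic water had 0 called in the lists of immediate early genes, and among the 20 upstream genes Elk4 was higher (0.78 ± 0.12) and Map2k1 lower (-0.40 ± 0.10). Of all genes, 5.99% were called there in either direction. Of the heat shock genes, 4 of 9 tested were called lower in antibiotic water after chow, among them the chaperones Hsph1 (-1.85 ± 0.33) and Dnaja1 (-1.25 ± 0.13), and 3 of 9 were called higher after fast food in antibiotic water, against 13.2% and 7.78% of all genes.

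Per kilobase of exon, mean CPM over the 16 libraries was highest for Junb at 34.7 CPM per kb, followed by Btg2 at 23.3, Ier2 at 12.2, Jun at 9.86, Dusp1 at 7.96, Ier3 at 4.74, Egr1 at 4.05, Myc at 3.89, Fos at 1.33 and Nr4a1 at 0.799. Ranges over libraries were wide enough that neighbours in this order overlapped. The ratio of the highest to the lowest library was 367-fold for Ier3 and 78.9-fold for Egr1, against 9.68-fold for Ier2 and 8.66-fold for Dusp1. Within groups, the SD of log2 CPM ran from 0.553 for Ier2 to 1.55 for Ier3, against a median of 0.278 over all genes tested, which put the 10 genes between percentiles 85.1 and 99.8 of all genes for spread within groups.

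Across the 16 libraries, Btg2 followed the mean of the other members most closely (Pearson's r = 0.964) and Myc least closely (0.716), as a description over libraries that share their groups. The 6 other genes most like the mean of the 10, by Pearson's r over the 16 libraries, were Csrnp1 (0.956), Vmp1 (0.949), Gadd45g (0.941), Chic2 (0.939), Dhx15 (0.938) and Rlf (0.932). Csrnp1 averaged 14.1 CPM in fast food antibiotic, 44.3 in chow antibiotic, 10.3 in fast food control and 16.4 in chow control livers. Chic2 averaged 38.7 CPM in fast food antibiotic, 84.1 in chow antibiotic, 27.7 in fast food control and 27.3 in chow control livers, and its fold change for antibiotic over control water after chow was 1.62 ± 0.27 (adjusted p = 0.000745).

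In the annotation, 3 of the 10 genes overlap a neighbour, and the sources used here do not say whether reads were assigned by strand. Junb ends within Prdx2 on the opposite strand, and Prdx2 had 37.3 to 47.1 CPM in fast food antibiotic, 36.9 to 45.8 in chow antibiotic, 52.0 to 65.1 in fast food control and 42.9 to 60.7 in chow control livers. Prdx2 was below the Junb range in chow antibiotic livers, but above it in fast food control livers (Junb 10.8 to 48.8 CPM). The long model of Dusp1 overlaps Ergic1, which had 36.1 to 48.3 CPM in fast food antibiotic, 39.5 to 55.4 in chow antibiotic, 45.5 to 53.6 in fast food control and 53.8 to 58.9 in chow control livers. In both control water groups Ergic1 was above every Dusp1 value (at most 27.8 CPM with fast food and 22.1 with chow). Neither neighbour was called in antibiotic over control water after chow (-0.29, adjusted p = 0.104 for Prdx2 and -0.18, adjusted p = 0.276 for Ergic1). The antisense gene of Jun, Junos, was not analysed here.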

How the data were processed

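The authors deposited a table of raw counts of reads per gene in 16 libraries. Per the labels' protocols, the libraries were poly(A) TruSeq mRNA libraries read as single reads of 50 bases. Tools named in the submitters' processing notes are STAR, HTSeq, cutadapt, FastQC, edgeR and DESeq2, with the build GRCm38.p6 and no versions or roles. Neither the annotation release nor the strand setting is given in these sources. Reads shared with near-identical copies or with overlapping genes can therefore not be separated.

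Everything else was computed from the counts. Identifiers were matched to symbols and coordinates (24942 of 25006 matched, GENCODE M21, GRCm38). edgeR 4.0.16 in R 4.3.3 kept genes with filterByExpr (minimum count 10), scaled libraries with TMM factors and fitted 1 mean per group to all 16 libraries with robust quasi-likelihood (common biological coefficient of variation 0.222). Tests were two-sided, and p-values were adjusted by Benjamini-Hochberg over 13180 genes. Each SE was taken as the absolute log2 fold change over the root of its F statistic. Log2 CPM used a prior count of 2. The fit was tested on simulated data. Alternatives were DESeq2 1.42.0, RLE factors, other filters, the 2 groups alone, a replicate block, each library left out in turn, the 3 libraries high in acute phase transcripts left out, and the rRNA-like share as a covariate or a model term.

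The 10 genes, the 14 gene lists (184 of 185 listed genes matched), the alternatives and the tests were chosen with earlier results of these data known. All 10 genes are named in every comparison, with up to 4 called genes of lowest p from each other list, and the 6 genes of mean log2 CPM of at least 1 most like the mean of the 10. Lists were described by counts and medians, with no test of a list.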

Additional observations from a re-analysis of the deposited data

Results flagged for a closer look

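In 11 instances a single library stood apart from the other 3 of its group by a Dixon gap above Dixon's critical value. For normally distributed values this rule flags about 1 in 20 groups by chance. The gaps were taken on CPM and not on log2 CPM, for each of the 10 genes in each of the 4 groups. These genes rose and fell together over libraries. That rate need not hold here, and the 11 instances are not independent. In fast food antibiotic replicate 2 these were Junb at 145.7 CPM, Egr1 at 29.5 CPM and Ier2 at 20.96 CPM. Chow antibiotic replicate 4 stood apart for Junb at 377.0 CPM, Egr1 at 136.2 CPM, Ier2 at 74.84 CPM and Ier3 at 69.3 CPM, and chow antibiotic replicate 3 for Fos at 10.38 CPM. Chow control replicate 2 stood apart for Junb at 236.1 CPM, Ier3 at 2.472 CPM and Btg2 at 66.75 CPM. No fast food control library stood apart for any of the 10 genes. In 10 of the 11 instances the library was among the 3 high in acute phase transcripts.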

How the results depend on the processing

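Of 430 member values under the alternatives other than leaving out single libraries, 340 kept their direction and side of the threshold, 19 lost and 36 gained a call and 35 changed sign; with single libraries left out, 721 of 800 kept both, 43 lost and 13 gained a call and 23 changed sign. The sign changes were in fast food over chow with control water, in antibiotic over control water after fast food, and in the interaction, where no member was called with all libraries; the cause was not tested. For fast food over chow in antibiotic water, members called were 7 with DESeq2 (2411 of all genes), 2 without a filter (1440 of all genes), 0 with the 2 groups alone (229 of all genes), 9 without the 3 libraries high in acute phase transcripts (3206 of all genes) and 7 with the rRNA-like share split (2060 of all genes). Fits to 2 groups alone hold fewer samples, and why their counts differ was not tested. For antibiotic over control water after chow, members called were 4 without a filter (2791 of all genes) and 4 with the 2 groups alone (2515 of all genes). In the interaction they were 2 with DESeq2 (1107 of all genes), 1 with a mean of at least 10 counts in every group (516 of all genes) and 8 without the 3 libraries (1851 of all genes), and all genes called were 143 under the rRNA-like covariate and 262 with the split. DESeq2 gave no adjusted p for Ier3 and Junb. All genes called for fast food over chow in control water were 307 with DESeq2, 365 with the 2 groups alone, 160 without the 3 libraries, 22 with the covariate and 17 with the split, and for antibiotic over control water after fast food 1538 with DESeq2, 0 with the covariate and 0 with the split.

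Log2 fold changes of fast food over chow in control water turned positive without the 3 libraries for Fos (0.516), Jun (0.106), Junb (0.428), Ier2 (0.158), Ier3 (0.311) and Btg2 (0.357), under the rRNA-like covariate for Ier2 (0.191) and Ier3 (0.985), and with the split for Junb (0.112), Ier2 (0.291), Ier3 (1.41) and Btg2 (0.144). Those of antibiotic over control water after fast food turned negative without the 3 libraries for Fos (-0.274), Junb (-0.885), Ier2 (-0.463), Ier3 (-0.937) and Dusp1 (-0.0654), with the covariate for Jun (-0.0869), Junb (-0.511), Ier2 (-0.406) and Ier3 (-2.39), and with the split for Fos (-0.119), Jun (-0.236), Junb (-0.969), Ier2 (-0.479), Ier3 (-2.58), Nr4a1 (-0.0301) and Btg2 (-0.0348). Ier2 was at -0.0073 with DESeq2, -0.0040 with RLE factors, -0.0107 without a filter and -0.0029 with a mean of at least 10 counts.

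Leaving out single libraries gave 1 to 8 members called (697 to 3042 of all genes) for the meal in antibiotic water, 3 to 9 (2301 to 3662) for antibiotic water after chow, 0 to 1 (164 to 1494) for the interaction, 11 to 155 of all genes for the meal in control water and 78 to 1102 for antibiotic water after fast food. Ranges that crossed 0 were, for the interaction, Egr1 -1.82 to 0.394 and Junb -2.18 to 0.350; for the meal in control water, Fos -0.616 to 0.514, Jun -1.02 to 0.0815, Junb -1.74 to 0.415, Ier2 -0.171 to 0.145, Ier3 -0.840 to 0.299 and Btg2 -0.903 to 0.347; and for antibiotic water after fast food, Fos -0.249 to 0.512, Junb -0.871 to 1.11, Ier2 -0.451 to 0.154, Ier3 -0.933 to 0.638, Nr4a1 -0.853 to 0.656 and Dusp1 -0.0483 to 0.531.

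No pairing of the libraries by replicate number was detected, although these correlations cannot exclude a factor shared by number. Over 24 same-numbered pairs the correlation of deviations from the group means ran from -0.222 to 0.359. Among them 3 pairs were above 0.1, and 9 of 48 best matches were with the own number. With the replicate number as a block, members called were 3 for the meal in antibiotic water (1547 of all genes), 7 for antibiotic water after chow (2916 of all genes) and 0 in the others (65 to 738 of all genes). They were not all the same genes: after chow, Fos and Jun were called (adjusted p = 0.0372 and 0.0377) and Nr4a1 and Ier3 were not (0.0782 and 0.120), and for the meal Jun was called (0.0467) and Nr4a1 and Ier3 were not (0.103 and 0.129). With the block, signs changed for Ier2 with the meal in control water (0.047) and for Ier2 (-0.0536) and Junb (-0.154) with the water after fast food. Fos, Nr4a1 and Ier3 were at a few CPM or below in most libraries, where counts limit what can be told apart.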
